A study of Mus musculus with 4 samples.

Results

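Transcripts of the nuclear genes for respiratory chain complexes I to IV were examined in B16-F10 cells, a mouse melanoma line, treated with recombinant Cdh1 for 24 h or left untreated. Members were all non-control probes whose RefSeq accession belongs to a gene with a symbol of the Nduf, Sdh, Uqcr or Cox4 to Cox8 series, whatever its signal. The rule found 80 probes of 67 genes among 56605 probes of 23462 named genes on each array. Complex I had 46 probes of 38 genes, complex II 6 probes of 4 genes, complex III 10 probes of 8 genes and complex IV 18 probes of 17 genes. Of 71 protein-coding genes that the rule matches in the RefSeq table, 67 had a probe, and Cox5b, Ndufb1, Ndufb4b and Ndufb4c were not measured here by this naming. The table also lists pseudogenes of Uqcrh, Ndufab1, Ndufs5, Ndufa12, Cox7c and other members, and whether probes of these genes bind such copies was not tested. Of the 67 genes, 64 exceeded background in at least 1 treatment group, on both of its arrays, and these 64 genes, with 76 probes, were measured on all 4 arrays. The other 4 probes, those of Cox7b2, Cox8b and Cox8c and the dimmer of the pair for Ndufa7, were well above background on 0 arrays.

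The respiratory chain sits in the inner mitochondrial membrane and passes electrons from NADH and succinate to oxygen. Complex I takes electrons from NADH in a matrix arm, made of an N module that oxidises NADH and a Q module that reduces ubiquinone, and pumps protons through a membrane arm. Complex II is the succinate dehydrogenase of the citrate cycle, complex III passes electrons from ubiquinol to cytochrome c, and complex IV, cytochrome c oxidase, reduces oxygen. Complexes I, III and IV also hold subunits encoded by mitochondrial DNA, and the genes examined here are the nuclear ones. Some complex IV subunits exist as a widely expressed isoform and a tissue-restricted one, such as the heart and skeletal muscle forms Cox6a2 and Cox7a1.

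The 4 samples were hybridised, each to its own one-colour array: 2 controls and 2 cultures given Cdh1 at 100 ng/mL, paired into 2 sets that the design text calls independent. All were the same line, grown in medium with 10% fetal bovine serum. Cdh1 is the mouse symbol for E-cadherin, through which epithelial cells adhere to each other. All 4 arrays were on 1 slide and in 1 scan, and between 59.29% and 61.33% of 59305 non-control spots were well above background. Levels are log2 intensities relative to the array's 75th percentile, so that 0 is this percentile, and levels of different probes are not compared with each other. All 8 melanocyte markers examined were well above background on all 4 arrays, as were 2 of 5 fibroblast, 2 of 5 leukocyte, 2 of 6 striated muscle and 1 of 4 epithelial markers, and the pan-leukocyte marker Ptprc was so on 0 arrays. Of the member probes, 7 lay in the last 24 rows of spots, those of Ndufa8, Ndufs1, Sdhd, Cox4i1, one of Cox7c and both of Uqcr10. These rows held 6.44% of all probes.

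Promoter sequences from RefSeq (GRCm38.p6), reaching from 250 bases before to 50 after each start, were matched to 53 of the 67 genes, 55 promoters in all. NRF1, GABPA, YY1 and ESRRA are transcription factors known for driving nuclear genes of mitochondria, and the letters of their motifs were searched on both strands. The NRF1 motif, of 10 letters with 1 free position, occurred in 12 of 55 member promoters, which is 21.8% against 4.6% of all 32851 promoters of the same length. CCGGAAG, searched for GABPA, occurred in 11 of 55 against 8.86% of all, and AAGATGGC, searched for YY1, in 7 of 55, or 12.7% against 2.75%. All 7 promoters with the YY1 letters were of complex I genes, which had 35 of the 55 member promoters. They were those of Ndufa3, Ndufa9, Ndufb8, Ndufc1, Ndufs4, Ndufs6 and Ndufs7. In each the match began between 23 and 39 bases after the start. The ESRRA letters TCAAGGTCA were in 1 promoter, that of Sdhd. None of the matches overlapped another. Member promoters also held more CpG dinucleotides, with a median of 19 against 7 over all promoters, and more G and C, 57.3% against 52.7%, and motifs rich in CG are matched more often in such sequence. A match is a description of letters, not of binding.

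The 250 bases before the start are printed for 5 of the genes named below, 5′ to 3′ on the gene's strand, with motif letters in capitals. Cox7a2 and Cox5a, widely expressed complex IV subunits, and Cox7a1, the muscle isoform of Cox7a2, were called between the sets. Cox6a1 is the partner of the called muscle isoform Cox6a2, for which the table used here gave no promoter. Sdhd, an anchor subunit of complex II, had letters of NRF1, GABPA and, after its start, ESRRA. Neither Cox6a1 nor Sdhd was called. The promoters of Ndufa1 and Ndufab1, which were called, held none of the motifs and are not printed. The regions are chr9:79759854-79760103 (minus strand) for Cox7a2, chr7:30183921-30184170 (plus strand) for Cox7a1, chr9:57520982-57521231 (plus strand) for Cox5a, chr5:115348959-115349208 (minus strand) for Cox6a1 and chr9:50603850-50604099 (minus strand) for Sdhd.
Cox7a2: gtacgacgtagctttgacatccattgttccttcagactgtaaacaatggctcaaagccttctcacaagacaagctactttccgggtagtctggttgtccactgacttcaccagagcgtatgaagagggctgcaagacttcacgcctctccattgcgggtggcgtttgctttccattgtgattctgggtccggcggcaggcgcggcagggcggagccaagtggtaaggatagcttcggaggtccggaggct
Cox7a1: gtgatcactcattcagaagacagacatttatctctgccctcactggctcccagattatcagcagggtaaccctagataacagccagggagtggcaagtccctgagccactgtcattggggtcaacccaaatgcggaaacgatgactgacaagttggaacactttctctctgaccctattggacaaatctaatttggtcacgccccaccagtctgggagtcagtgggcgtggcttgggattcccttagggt
Cox5a: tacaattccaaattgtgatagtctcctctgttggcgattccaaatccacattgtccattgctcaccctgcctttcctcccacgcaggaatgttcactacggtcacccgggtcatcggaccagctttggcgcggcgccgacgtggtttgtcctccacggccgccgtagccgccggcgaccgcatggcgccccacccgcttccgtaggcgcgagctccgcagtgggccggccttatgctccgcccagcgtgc
Cox6a1: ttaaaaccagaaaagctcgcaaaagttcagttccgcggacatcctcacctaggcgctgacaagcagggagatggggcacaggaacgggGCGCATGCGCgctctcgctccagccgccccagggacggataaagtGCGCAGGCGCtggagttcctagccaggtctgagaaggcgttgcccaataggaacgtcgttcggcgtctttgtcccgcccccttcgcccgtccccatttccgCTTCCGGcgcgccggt
Sdhd: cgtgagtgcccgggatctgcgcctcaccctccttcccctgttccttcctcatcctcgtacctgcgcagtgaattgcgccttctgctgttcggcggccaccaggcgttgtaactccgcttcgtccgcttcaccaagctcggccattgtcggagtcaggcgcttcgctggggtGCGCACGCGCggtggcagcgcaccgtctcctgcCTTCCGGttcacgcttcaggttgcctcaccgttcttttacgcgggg
The promoter of Cox6a1 carried the NRF1 letters beginning 162 and 117 bases before the start and the GABPA letters, on the opposite strand, 16 bases before it. That of Sdhd carried the NRF1 letters 79 bases and the GABPA letters 46 bases before the start. Those of Cox7a2, Cox7a1 and Cox5a held none of the 4 motifs. Over the 300 bases searched, the promoter of the muscle isoform Cox7a1 had 7 CpG dinucleotides, where Cox7a2 had 20, Sdhd 29, Cox6a1 32 and Cox5a 35.

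The first comparison asked whether respiratory chain transcripts differed after 24 h with recombinant Cdh1. No member passed the test: 0 of 76 probes had an adjusted p under 0.05 (limma, adjusted by Benjamini-Hochberg over 32568 probes, n = 2 per group), as did 0.0% of all probes. All 76 had an adjusted p of 1, and at least 0.84 with the set as a replicate block. At an unadjusted p under 0.05 there were 0 member probes, against 1.72% of all, and with the block 0 against 7.17%. With limma's trend and robust prior 0 members were called as well. The differences, Cdh1 minus control, lay between -0.15 and 0.05 on the log2 scale, and 75 of 76 probes differed by less than 0.1. The 95% interval of a difference reached from 0.279 to 0.92 on either side (median 0.342), and from 0.189 to 0.294 (median 0.196) with the set as a block, so changes smaller than these could not be told from 0 with 4 arrays, and a call after adjustment takes a larger change still. Arrays were simulated without the block, with the spread of all tested probes and 200 of 32568 probes changed. Of changes of 1 on the log2 scale 0% were called, and of changes of 2 it was 91.5%. The p-values measure only the spread between these arrays, and in bulk RNA fewer cells of a type and less RNA per cell cannot be told apart.

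The 4 members with the largest differences above 0 and the 4 below 0, among those of the same direction in both sets, were all small. Ndufa4l2, a paralogue of Ndufa4 known as a target of hypoxia signalling, had -3.41 and -3.0 in the controls of sets 1 and 2 and -3.66 and -3.05 with Cdh1, a difference of -0.15 with an SE of 0.28. Cox4i1, the widely expressed form of the regulatory subunit 4 of complex IV, had 7.02 and 6.54 in the controls and 6.91 and 6.46 with Cdh1 (difference -0.10, SE 0.25). In both genes the arrays of a set lay closer to each other than the 2 arrays of a treatment did, and the treatment groups overlapped. Ndufa3, a small membrane arm subunit, had 5.62 and 5.42 in the controls and 5.54 and 5.32 with Cdh1 (-0.09, SE 0.15). Cox6b1, a subunit facing the intermembrane space, had 3.13 and 2.79 in the controls and 3.03 and 2.76 with Cdh1 (-0.07, SE 0.18). A further probe of Ndufa3 gave a like difference, -0.08.

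On the other side of 0 stood Uqcrfs1, the Rieske iron-sulphur protein of complex III, with 4.66 and 4.44 in the controls and 4.69 and 4.52 with Cdh1 (0.05, SE 0.14). Uqcrh, the hinge protein that faces cytochrome c, had 6.47 and 6.19 in the controls and 6.48 and 6.26 with Cdh1 (0.04, SE 0.16). Cox6b2, the testis isoform of Cox6b1, had -3.16 and -3.24 in the controls and -3.10 and -3.24 with Cdh1 (0.03, SE 0.12). Ndufa8, a membrane arm subunit with its probe in row 384, had 3.49 and 3.45 in the controls and 3.49 on both Cdh1 arrays (0.02, SE 0.10). In all 4 genes the treatment groups overlapped or met. With median centring in place of the percentile the differences of Uqcrh, Cox6b2 and Ndufa8 lay below 0, at -0.01, -0.01 and -0.02.

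**Figure D1:**
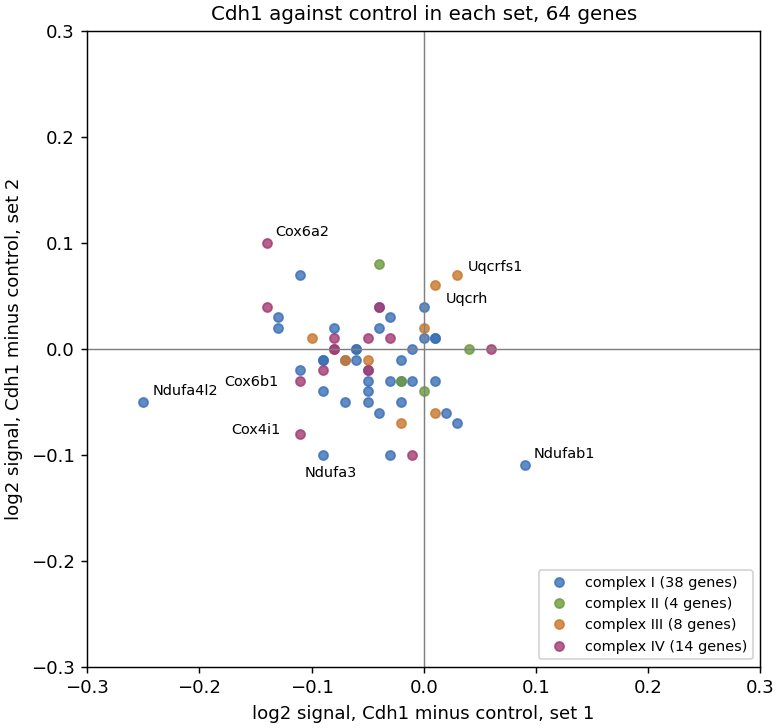
Each point is 1 of the 64 measured genes, with the log2 difference Cdh1 minus control in set 1 on the horizontal axis and in set 2 on the vertical axis, coloured by complex. Points crowd around 0, and 33 genes lie below 0 on both axes and 8 above 0 on both.

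Most members lay slightly below 0, by amounts that moved with the scaling. The median difference over the 64 genes was -0.0324, against -0.0143 over all 14454 genes tested and -0.0233 over the 25% of them with the highest mean signal. It was -0.0457 in set 1 and -0.0104 in set 2. Of the 64 genes, 53 were lower with Cdh1 in the mean, 82.8% against 58.6% of all genes and 71.7% of the brightest 25%. The number was 37 with normexp and quantile normalization, 42 with quantile normalization, 36 with the authors' table and 63 with median centring. In both sets 33 genes were lower, 51.6% against 31.6% of all genes, and 8 were higher, 12.5% against 19.7%. Both Cdh1 arrays lay below both control arrays for 1 gene, Ndufa10, named after its values were seen, which is 1.56% against 8.36% of all genes. The median over the 64 genes was -0.00798 with normexp, -0.00914 with quantile normalization, -0.00814 with the authors' table and -0.0765 with median centring. By complex the medians were -0.0329 for complex I, -0.00182 for complex II, -0.0277 for complex III and -0.0364 for complex IV. With normexp, quantile normalization and the authors' table complex II lay above 0, at 0.014 to 0.0247, complex I between -0.0119 and -0.00852 and complex III between -0.00344 and -0.00174. With median centring all 4 medians lay between -0.0805 and -0.0459.

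The second comparison set the independent culture sets against each other, whatever the treatment, since the design text calls them independent. Complex IV genes made up most of the calls. Cox4i1, Cox7a2, Cox5a and Cox6c of complex IV and Ndufa1 of complex I were lower in set 2, by 1.21-fold to 1.38-fold, and the muscle isoforms Cox6a2 and Cox7a1 and the acyl carrier protein gene Ndufab1 were higher, by 1.35-fold to 1.53-fold. These 8 of 76 probes, or 10.5%, had an adjusted p under 0.05 (limma, Benjamini-Hochberg), against 14.0% of all 32568 probes, so the share of members called was below that of all probes in this fit. The 5 lower probes were 6.58% of members, against 7.81% of all, and the 3 higher ones 3.95% against 6.23%. None of the 8 was called with the treatment as a block, where their adjusted p lay between 0.0575 and 0.0946 and 4.9% of all probes were called, or with any 1 of the 4 arrays left out, where 0 of all probes were called. With limma's trend and robust prior the order turned: 48 members were called, or 63.2% against 32.9% of all probes, and 41 of them were lower, 53.9% of members against 17.6% of all. With median centring the 3 higher members were called and 0 lower ones, so that 0.0% of the calls were lower in place of 62.5%. Over all probes 51.4% of the calls were lower with median centring and 55.6% in the first fit. Of the member calls 3 of 6 were lower with quantile normalization, against 52.7% of all calls. The authors' table gave 3 of 7 (42.9%) against 46.6%, and normexp 12 of 18 (66.7%) against 49.0%. Members called were 3.95% with median centring, 7.89% with quantile normalization, 9.21% with the authors' table and 23.7% with normexp. Over all probes these shares were 11.6%, 14.2%, 13.5% and 26.1%. What differed between the sets is not given in the sources used here.

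Single calls were few, but most members lay on the same side. The median of the 64 genes, set 2 minus set 1, was -0.127, and it was -0.144 in the control arrays and -0.121 in the Cdh1 arrays. It was smaller with normexp (-0.0699), quantile normalization (-0.0733) and the authors' table (-0.0794). Over all 14454 genes the median was -0.0289 and over the brightest 25% -0.0487. Of the 64 genes, 52 were lower in set 2, which is 81.2% against 54.5% of all genes and 58.9% of the brightest 25%, and between 47 and 52 were lower under each scaling tried. Both arrays of set 2 lay below both of set 1 for 49 genes, 76.6% against 40.7% of all genes, and above both for 11 genes, 17.2% against 31.5%. No test of the members as a list was made, and these shares describe these 4 arrays. Where a gene had 2 tested probes, they had the same direction in 11 of 12 genes, with gaps of 0.0103 to 0.157. The exception was Ndufb8, a membrane arm subunit, with -0.06 and 0.10.

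**Figure D2:**
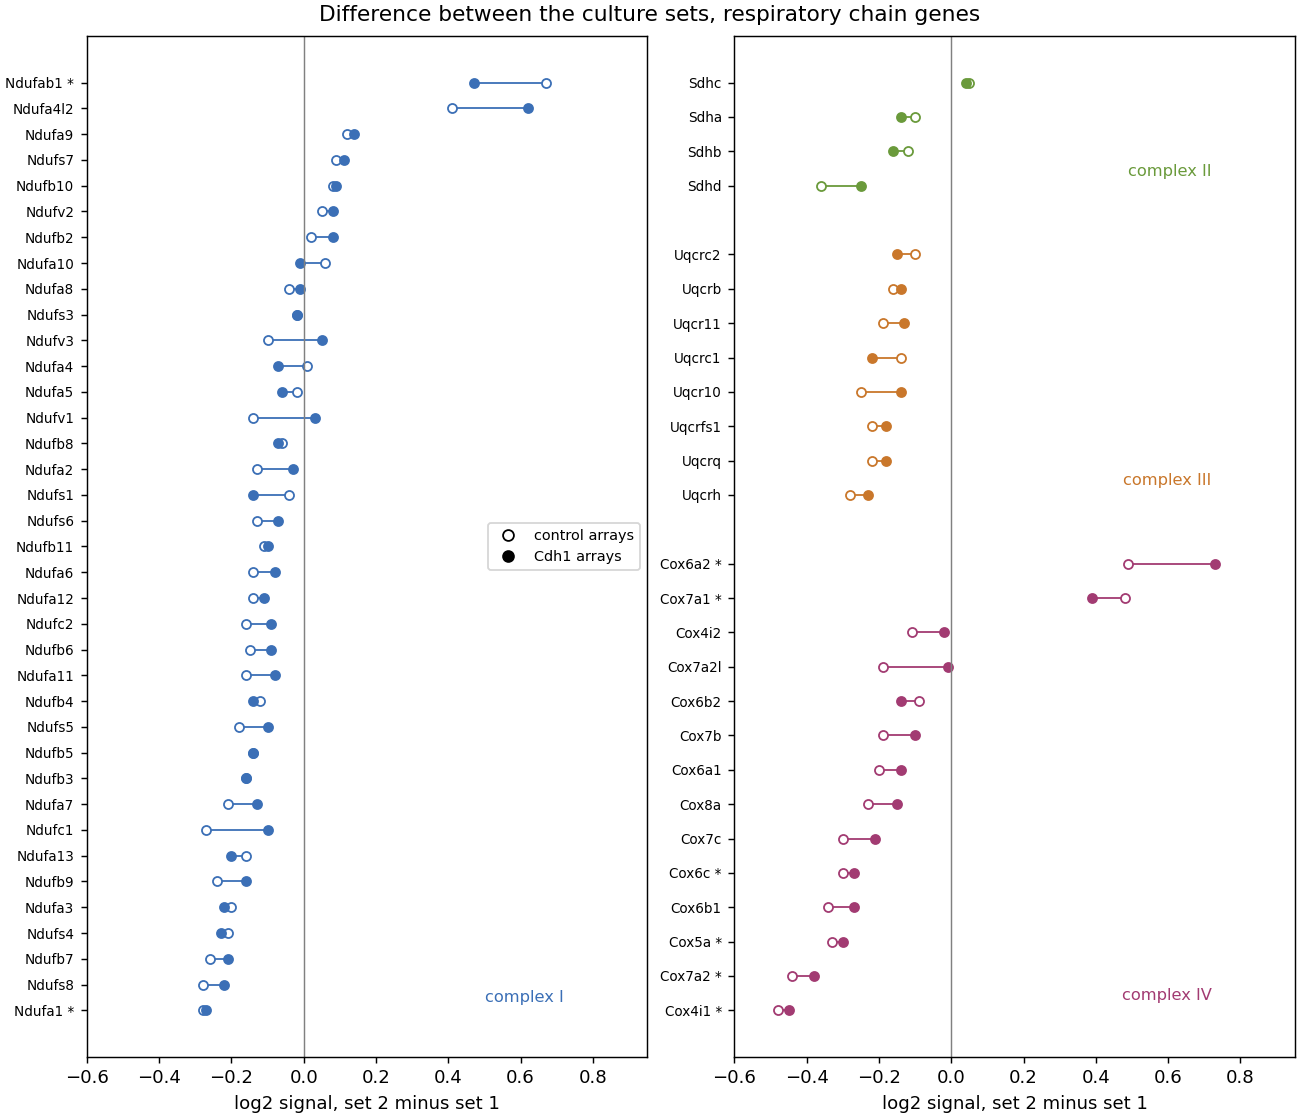
For all but 1 of the 64 measured genes, by complex, the horizontal axis gives the log2 difference set 2 minus set 1, as an open point in the control arrays and a filled point in the Cdh1 arrays. Asterisks mark the 8 genes with an adjusted p under 0.05, and all 8 genes of complex III lie below 0 in both pairs of arrays.

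Complex IV held 6 of the 8 calls, which is 42.9% of its 14 tested genes against 17.5% of all genes tested. Cox4i1 (NM_009941) had 7.02 and 6.91 on the arrays of set 1 and 6.54 and 6.46 on those of set 2, in the order control and Cdh1, which is used from here on. Set 2 was thus 1.38-fold lower (-0.46, SE 0.07, limma adjusted p 0.0362). Its probe lay in row 380, within the last 24 rows, and the gene has no further probe. Cox7a2 (NM_009945), the widely expressed form of subunit 7a, had 6.23 and 6.14 in set 1 and 5.79 and 5.77 in set 2 (-0.41, SE 0.06, limma adjusted p 0.0337). Cox5a (NM_007747), a matrix-side subunit that joins early in assembly, had 6.87 and 6.82 in set 1 and 6.54 and 6.52 in set 2 (-0.32, SE 0.05, limma adjusted p 0.0415). Cox6c (NM_053071), a membrane subunit, had 6.63 and 6.61 in set 1 and 6.33 and 6.34 in set 2 (-0.28, SE 0.05, limma adjusted p 0.0470). In all 4 genes both arrays of set 1 lay above both of set 2, as they did in 40.7% of all genes. The gap between sets was several times the gap within a set.

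The other widely expressed subunits of complex IV were not called, with differences from -0.31 for Cox6b1 (limma adjusted p 0.0601) to -0.10 for Cox7a2l, a factor that joins complexes III and IV. Cox6a1 had 8.21 and 8.16 in set 1 and 8.0 and 8.02 in set 2, a difference of -0.17. Cox8a, a small membrane subunit, had 7.37 and 7.30 in set 1 and 7.14 on both arrays of set 2, and Cox7b had 6.17 and 6.13 in set 1 and 5.98 and 6.02 in set 2. All 10 widely expressed genes with a Cox symbol, Cox7a2l included, were lower in set 2 under every scaling tried. Their median was -0.269, and -0.207 to -0.255 under the other scalings. Ndufa4, later assigned to complex IV but counted here under complex I by its name, is not among them. It differed by -0.03 and was higher in set 2 with normexp and the authors' table.

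The tissue-restricted isoforms did not share one direction. Cox6a2 (NM_009943) had -0.39 and -0.53 in set 1 and 0.10 and 0.21 in set 2, a rise of 0.61 with an SE of 0.08 (limma adjusted p 0.0282), or 1.53-fold. Cox7a1 (NM_009944) had -2.95 and -2.97 in set 1 and -2.47 and -2.58 in set 2, a rise of 0.44 with an SE of 0.06 (limma adjusted p 0.0328), or 1.35-fold. Ndufa4l2 had -3.41 and -3.66 in set 1 and -3.0 and -3.05 in set 2, a difference of 0.51 that was not called (limma adjusted p 0.0580). It was called with the authors' table (0.56, limma adjusted p 0.0444), where a probe had to be detected on each of the 4 arrays (0.51, 0.0445) and with normexp, where it was smaller (0.26, 0.0135). Cox7a1 was also smaller with normexp, at 0.27, and still called (limma adjusted p 0.0167). Cox4i2, the lung isoform of subunit 4, had -0.66 and -0.74 in set 1 and -0.76 on both arrays of set 2, and Cox6b2 differed by -0.11. Neither of these was called.

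For each isoform the ratio to its partner was followed within each array, which cancels any scaling common to an array. The log2 ratio of Cox7a1 to Cox7a2 was higher in set 2 than in set 1 by 0.92 in the control arrays and 0.77 in the Cdh1 arrays, in the mean 0.84 or 1.79-fold. That of Cox6a2 to Cox6a1 was higher by 0.70 and 0.88, in the mean 0.79 or 1.73-fold. The shift was 0.54 for Ndufa4l2 to Ndufa4, 0.40 for Cox4i2 to Cox4i1 and 0.19 for Cox6b2 to Cox6b1. All 5 ratios were thus higher in set 2 in both pairs of arrays. Cox4i2 and Cox6b2 were themselves lower in set 2, by -0.06 and -0.11. Their ratios were higher because the partners Cox4i1 and Cox6b1 differed by more, -0.46 and -0.31. Ratios of other pairs of a dim and a bright gene were not computed for comparison. Median centring and the authors' table apply 1 factor per array, so these ratios are the same there by construction. With normexp the mean shifts were 0.65 for Cox7a1, 0.56 for Cox6a2, 0.25 for Ndufa4l2, 0.34 for Cox4i2 and 0.20 for Cox6b2. With quantile normalization they were 0.79, 0.64, 0.49, 0.33 and 0.14 in the same order. With 2 arrays a set, the smallest p of an exact permutation test (two-sided) is 0.333, so none is given for these shifts. Of the striated muscle markers, Ckm, Acta1, Mb and Myh1 were well above background on 0 arrays. Myh7, at -5.02 to -4.64, and Tnnt3, at -4.30 to -4.14, were so on all 4 arrays. The summed level of all 6 markers lay between -3.13 and -3.07 on all 4 arrays.

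**Figure D3:**
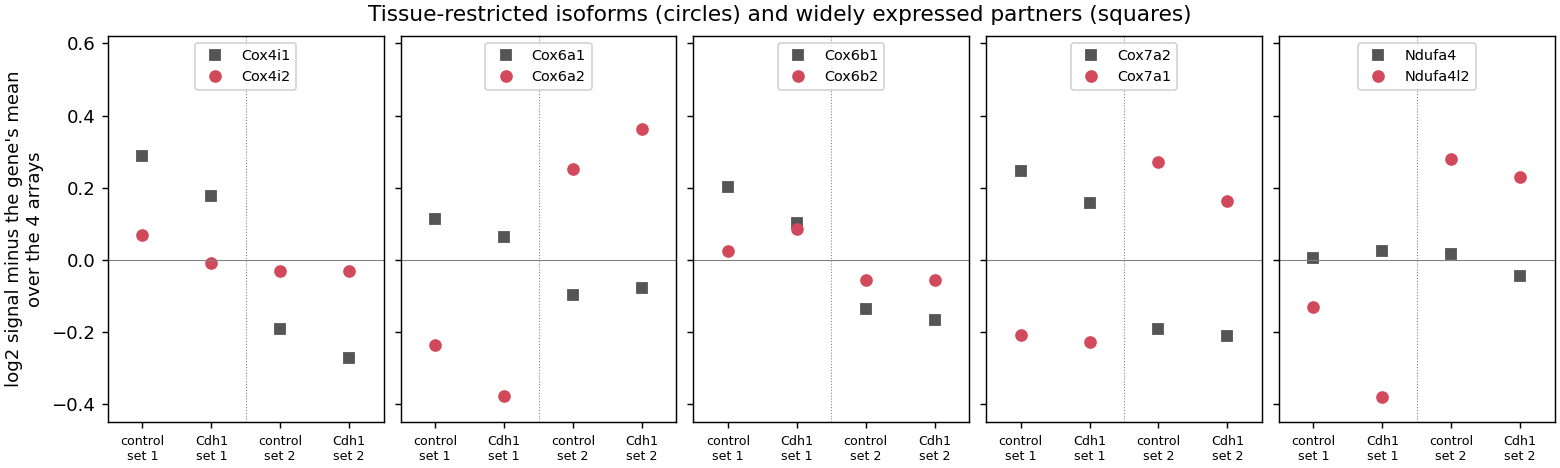
Each panel shows a tissue-restricted isoform (circles) and its widely expressed partner (squares) on the 4 arrays, as the log2 level minus the gene's own mean over the arrays. Cox7a1 and Cox6a2 lie above their means in set 2 while their partners Cox7a2 and Cox6a1 lie below.

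In complex I 29 of 38 genes were lower in set 2, with a median of -0.103. With normexp, quantile normalization and the authors' table it was 24 genes, with medians of -0.0453, -0.0448 and -0.0562. Ndufa1 (NM_019443), a membrane arm subunit encoded on the X chromosome, had 5.83 and 5.84 in set 1 and 5.56 and 5.57 in set 2, a fall of 0.27 on the log2 scale with an SE of 0.05 (limma adjusted p 0.0482). Ndufs8, an iron-sulphur subunit of the Q module, had 4.88 and 4.82 in set 1 and 4.60 on both arrays of set 2, a difference of -0.25 (limma adjusted p 0.0645). Ndufab1 (NM_028177), which also serves as the acyl carrier protein of mitochondrial fatty acid synthesis, had 0.11 and 0.21 in set 1 and 0.78 and 0.68 in set 2. Its rise of 0.57, with an SE of 0.07, was 1.49-fold (limma adjusted p 0.0261). The sets did not overlap in any of the 3 genes. Of all genes, 40.7% had set 2 wholly below set 1 and 31.5% wholly above. Ndufa4, named for complex I and later assigned to complex IV, had 6.12 and 6.14 in set 1 and 6.13 and 6.07 in set 2, and here the sets overlapped.

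By module, 9 of 10 genes of the N module were lower in set 2 with a median of -0.095, and 16 of 21 of the membrane arm with a median of -0.125. With normexp, quantile normalization and the authors' table the median of the N module was -0.0283, -0.0275 and -0.0478, with 7 or 8 genes lower, and that of the membrane arm -0.0667, -0.0745 and -0.0775, with 15 genes lower. The 5 genes of the Q module had a median of -0.0242, which was above 0 with normexp, quantile normalization and the authors' table.

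All 8 genes of complex III that the rule matched were lower in set 2, in both pairs of arrays and under every scaling tried. None was called. Cyc1, the cytochrome c1 gene of complex III, has no symbol of the rule and is not among them. It differed by -0.07, and with normexp both Cyc1 and Cycs were higher in set 2. Their median was -0.186, and -0.116 with quantile normalization. Uqcrh had the largest difference, with 6.47 and 6.48 in set 1 and 6.19 and 6.26 in set 2 (-0.25, limma adjusted p 0.0645). Uqcrq, a small subunit of the complex, had 7.86 and 7.81 in set 1 and 7.65 and 7.64 in set 2 (-0.20, limma adjusted p 0.0932). The Rieske gene Uqcrfs1 differed by -0.20 as well.

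In complex II, Sdhd had 4.99 and 4.95 in set 1 and 4.62 and 4.70 in set 2, a difference of -0.31 that missed the threshold (limma adjusted p 0.0519), and its probe lay in row 382. Sdha, the flavoprotein that oxidises succinate, had 4.51 and 4.55 in set 1 and 4.41 on both arrays of set 2, while its dimmer probe differed by -0.01. Sdhb, the iron-sulphur subunit, had 6.96 and 6.95 in set 1 and 6.83 and 6.79 in set 2. Sdhc, the other membrane anchor, had 3.14 and 3.12 in set 1 and 3.19 and 3.16 in set 2. Thus Sdha, Sdhb and Sdhd were lower in set 2 on both of its arrays and Sdhc was higher, and none was called. Over all genes both arrays of set 2 lay below both of set 1 in 40.7% and above both in 31.5%.

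Related gene lists were counted in the same way. The 18 ATP synthase subunits, which form the complex that uses the proton gradient, were all lower in set 2, with a median of -0.117, and between 15 and 18 were lower under each scaling. The median was -0.0492 with normexp, -0.0633 with quantile normalization and -0.0696 with the authors' table. Of these 3 were called, all lower, which is 16.7% against 17.5% of all genes, among them Atp5o and Atp5a1, each at -0.31 (limma adjusted p 0.0428 and 0.0437). Factors that assemble the complexes did not lie on that side: 22 of 30 factors for complexes II to IV were higher in set 2 (median 0.0765), of which 4 were called, and 1 was called lower. The share called, 16.7%, was near that of all genes, and the median reached 0.124 with the authors' table. The called ones included Coa5 at 0.61, whose adjusted p was 0.0154 and 0.0495 with the treatment as a block, Uqcc3 at 0.61, and the copper chaperone Cox17 at -0.37. Of 15 complex I assembly factors 9 were higher and 1 (6.67%) was called, Ndufaf3 at 0.43. Neither Cycs nor Cyc1, the genes for cytochromes c and c1, was called. Of 16 citrate cycle enzymes, 8 were lower and 8 higher, and 1 (6.25%) was called, Ogdh at -0.38.

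Of 16 regulators of mitochondrial biogenesis, 11 were higher in set 2 and 5 lower, with a median of 0.0939. Of these 3 were called, Myc higher and Ppargc1a and Mitf lower, a share of 18.8% near the 17.5% of all genes. Ppargc1a, the coactivator known for raising respiratory chain genes in several tissues and in melanoma cells with high Mitf, had 2.74 and 2.60 in set 1 and 1.86 and 1.85 in set 2. Its fall of 0.82 on the log2 scale, with an SE of 0.07, held with the treatment as a block (limma adjusted p 0.0153, and 0.0471 with the block). Mitf, the melanocyte lineage factor, had 5.90 and 6.02 in set 1 and 5.59 and 5.56 in set 2 (-0.39, limma adjusted p 0.0419), with its probe in row 370. Myc had 0.99 and 1.08 in set 1 and 2.30 and 2.11 in set 2, a rise of 1.17 with an SE of 0.09 (limma adjusted p 0.0137, and 0.0471 with the block). Ppargc1b, a relative of Ppargc1a, differed by 0.42 and was not called. Of the melanocyte markers, the pigment enzyme gene Tyr differed by -1.77 between the sets, Sox10 by 0.20, and Dct, Mc1r, Mitf, Mlana, Pmel and Tyrp1 by -0.42 to -0.12. The fibroblast marker Col1a1, well above background on all 4 arrays, differed by -1.22. The part of these genes in the differences of the members was not tested. Of the list genes named here, Coa5, Ppargc1a and Myc were called with the treatment as a block and the others were not. No gene of the 6 lists was called between Cdh1 and control (limma).

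**Figure D4:**
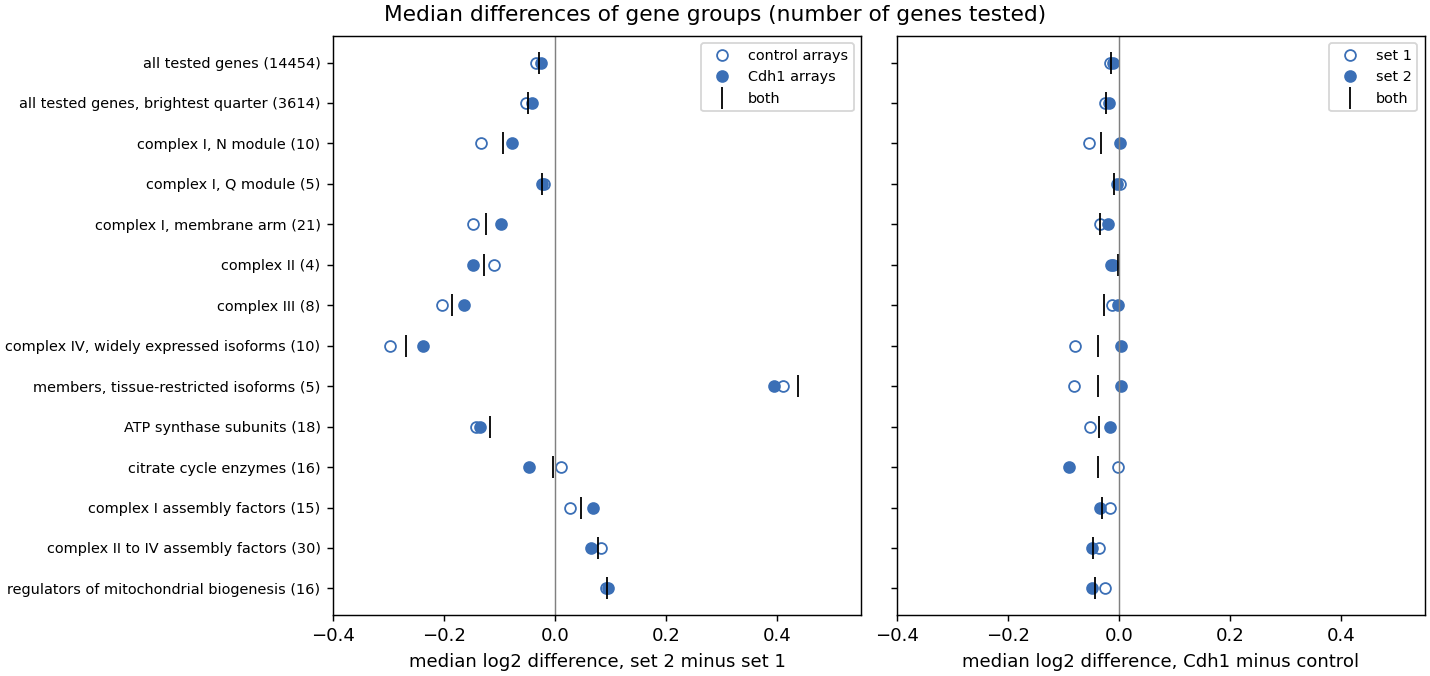
Median log2 differences of gene groups, with the number of genes tested, for set 2 minus set 1 (left; open points control arrays, filled points Cdh1 arrays) and Cdh1 minus control (right; open points set 1, filled points set 2), with a bar for the median over both. The widely expressed complex IV genes lie lowest on the left at -0.269, while all groups lie within 0.1 of 0 on the right.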

How the data were processed

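Total RNA of 4 B16-F10 cultures was labelled with Cy3 and read on Agilent one-colour arrays. The deposited scanner files give, per the file headers, a processed intensity for each spot after background subtraction and spatial correction by Agilent Feature Extraction 12.0.3.1, with no scaling between arrays. A second deposited table of intensities equals the scanner values multiplied by 1 factor per array and was used as an alternative. Intensities were turned to log2, from which each array's 75th percentile of non-control spots was subtracted, with outlier spots left out and spots of a probe averaged.

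A probe exceeded background on an array if the scanner's flag was set for over 0.5 of its spots, and had to do so in both arrays of a treatment group to be tested, which 32568 did. Names came from RefSeq accessions (table of GRCm38.p6; the headers name mm9, so no probe coordinates are given), which named 33767 probes (59.65%). A gene was represented by its brightest probe. Cdh1 was compared with control, and set 2 with set 1, by limma 3.58.1 in R 4.3.3 (lmFit and eBayes, 4 arrays), with Benjamini-Hochberg adjustment over all probes tested and a threshold of 0.05. The scripts were tested on simulated data. Python 3.11.15 with pandas 2.3.3 and matplotlib 3.10.9 did the rest.

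The sample titles and the design text mark the 2 sets, so set numbers pair the arrays. Deviations from the group means correlated at 0.677 between the 2 arrays of a set. With 2 arrays per group this value is the same for both sets by construction. The number of arrays limits the precision. Alternatives were normexp (offset 50) with quantile normalization, the authors' table, quantile normalization alone, centring on the median, dim probes kept, only probes well above background on all 4 arrays, outlier spots kept, the last 24 rows left out, the other factor as a block, the trend and robust prior, a gene's probes averaged, and each array left out.

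The genes named were, per comparison, the 4 with the largest difference in each direction among those with 1 direction in both pairs of arrays, called ones first; per complex I, III and IV, 2 in each direction by the same rule; all of complex II; isoform pairs; and at most 2 in each direction of a list. The members, lists and rules were chosen with earlier results of these data known. Values of 1 member gene are not reported here by name.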

Additional observations from a re-analysis of the deposited data

How the results depend on the processing

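The count of 0 called members between Cdh1 and control (limma) was 0 under each alternative, with the set as a replicate block (lowest adjusted p 0.84) and with each array left out (0 to 0). The block changed no call in that comparison. The median Cdh1 difference, -0.0324, was -0.0765 with median centring, -0.00914 to -0.00798 with normexp, quantile normalization and the authors' table, and -0.0991 to 0.0418 with 1 array left out. Such fits hold both arrays of one set and 1 of the other, so the set difference is part of them by construction.

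The 8 members called between the sets (limma) became 18 with normexp, 48 with a prior fitted with trend and robust settings, 3 with median centring, 0 without the filter on dim probes, 0 with the treatment as a block and 0 to 0 with 1 array left out. They were 6 to 11 with the other alternatives. Over all probes 4571 calls became 8506, 10712, 3767, 0, 1597 and 0. The median set difference, -0.127, was -0.0699 with normexp, -0.0733 with quantile normalization, -0.0794 with the authors' table and -0.151 to -0.117 with 1 array left out. The cause of these changes was not tested.

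The named genes gave 102 Cdh1 differences with other settings, of which 83 had the same sign and 19 reversed, and 0 were called. Uqcrh reversed to -0.01 with median centring, Ndufa8 to -0.02 with median centring, and Cox6b2 to -0.02 with normexp, -0.01 with quantile normalization and -0.01 with median centring. With 1 array left out the differences ranged from -0.05 to 0.16 for Uqcrfs1, -0.10 to 0.18 for Uqcrh, -0.04 to 0.10 for Cox6b2, -0.46 to 0.16 for Ndufa4l2, -0.34 to 0.14 for Cox4i1, -0.20 to 0.01 for Ndufa3 and -0.24 to 0.10 for Cox6b1. Of 297 set differences of named genes, 229 had the same sign and call, 57 lost the call, 8 gained it and 3 reversed. Those 3 were of Ndufa4, at 0.01 with normexp, 0.0 with quantile normalization and 0.02 with the authors' table. The 102 and 297 differences leave out the averaging of a gene's probes and the trend and robust prior. With that prior 48 of 76 member probes were called between the sets, so calls gained there are not in this tally. Signal over background limits the 4 untested probes.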
